A study of Homo sapiens with 6 samples.

Results

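CEBPA, FOXA1, ONECUT2 and NR1I2 encode transcription factors of the hepatocyte, and their messenger RNA was followed in Hep3B cells, an established line grown from a human liver carcinoma. The 4 genes were found by symbol among the 2681 entries with values in the deposited table, and each had 1 entry. Hep3B cells were held for 24 hours at 1% oxygen (hypoxia, n = 3) or 20% oxygen (normoxia, n = 3), so that the effect of a low oxygen supply on transcript levels can be read. All 6 libraries carry the genotype label WT and, in each, a treatment label of genetic modification that the labels do not explain. The RNA is described as coming from subclones, without saying how many, so the cells may be 1 clone or several. The table holds only entries that its authors had already called as changed on these same 6 samples, with an FDR of at most 0.00999 and an absolute log2 fold change of at least 1.00. A gene without an entry may have been unchanged, little changed or silent, and no call below is independent evidence of a change.

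Liver cells keep their identity through a small set of transcription factors that bind the enhancers of secretory and metabolic genes together and regulate one another. CEBPA encodes C/EBP alpha, a basic leucine zipper protein that holds differentiated hepatocytes out of the cell cycle and drives genes of glucose and urea metabolism. FOXA1 encodes a forkhead pioneer factor that opens closed chromatin at liver genes, and ONECUT2 a CUT and homeodomain factor of liver and bile duct development. NR1I2 encodes the pregnane X receptor (PXR), a nuclear receptor that binds drugs, bile acids and steroids and induces genes of their disposal.

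At 1% oxygen, the transcripts of CEBPA, FOXA1 and ONECUT2 were lower and that of NR1I2 was higher. By mean normalized count, hypoxic cells held 24.1% of the normoxic level of CEBPA, 27.6% of that of FOXA1 and 17.1% of that of ONECUT2, while NR1I2 was 4.93-fold higher. For each gene the hypoxia and normoxia libraries did not overlap. That separation is no mark of these genes, since 99.6% of all listed entries show it: 43% by being lower in every hypoxia library and 56.7% by being higher.

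The sequences around RefSeq transcription starts are shown, and their base composition differs between the 3 genes that fell and the 1 that rose. Any link between base composition and the direction of change was not tested. Each window below runs from 250 bases before to 50 bases after a RefSeq start, 5′ to 3′, on GRCh38.p14. Capitals mark the matches, on either strand, to 4 groups of letters searched: the core of the hypoxia response element (ACGTG or GCGTG), the C/EBP site TTGCNNAA, the FOXA sites TGTTTAC and TGTTTGC, and the ONECUT core ATTGAT.
CEBPA (chr19:33302485-33302784, minus strand): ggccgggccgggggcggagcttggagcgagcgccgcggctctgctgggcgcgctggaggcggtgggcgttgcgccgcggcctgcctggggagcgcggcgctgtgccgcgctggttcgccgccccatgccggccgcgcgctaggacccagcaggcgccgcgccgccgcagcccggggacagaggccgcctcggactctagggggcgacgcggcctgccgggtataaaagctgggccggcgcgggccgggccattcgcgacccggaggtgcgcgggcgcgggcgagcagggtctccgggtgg
FOXA1 (chr14:37595200-37595499, minus strand): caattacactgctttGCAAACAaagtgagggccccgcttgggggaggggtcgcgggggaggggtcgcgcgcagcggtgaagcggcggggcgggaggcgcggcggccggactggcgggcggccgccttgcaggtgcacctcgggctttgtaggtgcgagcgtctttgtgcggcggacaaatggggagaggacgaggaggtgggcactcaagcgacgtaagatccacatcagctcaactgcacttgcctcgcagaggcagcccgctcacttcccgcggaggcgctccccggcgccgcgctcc
ONECUT2 (chr18:57435124-57435423, plus strand): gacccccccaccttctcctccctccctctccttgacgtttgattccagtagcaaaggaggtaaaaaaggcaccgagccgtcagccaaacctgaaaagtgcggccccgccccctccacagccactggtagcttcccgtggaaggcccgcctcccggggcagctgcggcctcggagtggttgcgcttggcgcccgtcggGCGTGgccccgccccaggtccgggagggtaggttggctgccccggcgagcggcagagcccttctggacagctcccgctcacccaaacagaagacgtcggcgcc
NR1I2 (chr3:119781851-119782150, plus strand): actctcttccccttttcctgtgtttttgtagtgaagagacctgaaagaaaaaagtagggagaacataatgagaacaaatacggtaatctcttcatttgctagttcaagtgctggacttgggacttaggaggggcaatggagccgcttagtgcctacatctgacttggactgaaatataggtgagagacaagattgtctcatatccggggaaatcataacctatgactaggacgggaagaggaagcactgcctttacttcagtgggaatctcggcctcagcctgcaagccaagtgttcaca
RefSeq lists a further NR1I2 start whose window, chr3:119782460-119782759, is not shown. GC content was 80.7% in the CEBPA window, 69.3% in that of FOXA1 and 68.0% in that of ONECUT2, against 45.3% and 50.7% in the NR1I2 windows and a median of 58.7% over 35116 windows of this length. The dinucleotide CG occurred 50 times for CEBPA, 34 times for FOXA1 and 24 times for ONECUT2, but 5 times and 0 times for NR1I2 (median over all windows, 14). ONECUT2 held the hypoxia response core once, as GCGTG starting at base 198 of its window, and FOXA1 held the reverse complement of a FOXA site, GCAAACA, at base 16. The CEBPA and NR1I2 windows held no match. Of all windows, 48.4% held the hypoxia response core, 10.5% the C/EBP site, 7.17% a FOXA site and 6.26% the ONECUT core, and a match describes letters only, not binding.

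In GENCODE 29, on GRCh38, CEBPA is a gene of 1 exon on chromosome 19 from 33299934 to 33302564, minus strand. FOXA1 lies on chromosome 14 from 37589984 to 37596059, minus strand. ONECUT2 lies on chromosome 18 from 57435685 to 57491297, plus strand, and NR1I2 on chromosome 3 from 119780484 to 119818485, plus strand. The RefSeq window of ONECUT2 ends before its GENCODE gene begins, and those of FOXA1 and NR1I2 lie inside their genes. Which starts these cells use was not examined. The sources used here do not say whether counting used strand, which matters most for CEBPA. Of its 50-base words, 37.1% also occur in the antisense genes AC008738.3 and AC008738.5 on the other strand, so without strand the reads of the 3 genes cannot be fully told apart. NR1I2 shares 3.22% of its words with AC069444.2, which overlaps it on the same strand. FOXA1 shares 16 exonic bases and no 50-base word with TTC6 on the other strand, and no annotated gene overlaps ONECUT2. None of these overlapping genes had an entry.

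C/EBP alpha had the highest transcript level of the 4 factors. CEBPA stood at 10.4, 11.3 and 11.96 FPKM (fragments scaled by transcript length and library depth) in hypoxia replicates 1 to 3, against 60.1, 56.1 and 51.8 FPKM in normoxia replicates 1 to 3. In FPKM, the lowest normoxia library was more than 4 times the highest hypoxia library. The gap was smaller in normalized counts (4254 against 1334). The underlying reads were 1041, 1126 and 1184 counts in hypoxia and 6001, 4969 and 4713 counts in normoxia. On the scale of normalized counts, CEBPA averaged 1190 ± 144 in hypoxia and 4933 ± 713 in normoxia (SD, n = 3 each), a log2 fold change of -2.05 (SE 0.16, edgeR adjusted p = 2.81e-05). CEBPA was the steadiest of the 3 factors that fell, with a coefficient of variation (CV) of 12.1% in hypoxia and 14.4% in normoxia, below the medians of 17.9% in hypoxia and 17.0% in normoxia over the 2398 entries that averaged at least 30 normalized counts in both groups.

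The pioneer factor was lower and less even between libraries. FOXA1 measured 2.28, 1.20 and 2.51 FPKM in the hypoxia libraries, against 5.55, 9.31 and 11.3 FPKM in the normoxia libraries. Hypoxia replicate 2 was lowest among the hypoxic samples and normoxia replicate 1 among the normoxic ones. Normalized counts averaged 214 ± 52.0 in hypoxia and 776 ± 204 in normoxia (SD, n = 3 each), with a log2 fold change of -1.86 (SE 0.28, edgeR adjusted p = 0.00037). The CV of FOXA1 was 24.3% in hypoxia and 26.2% in normoxia.

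ONECUT2 had the lowest level at 1% oxygen and the strongest fall. It measured 0.0961, 0.0824 and 0.176 FPKM in hypoxia, against 0.583, 0.699 and 1.24 FPKM in normoxia. In each group replicate 3 stood well above the other libraries. Its counts were 60, 51 and 107 in hypoxia and 357, 380 and 692 in normoxia, more reads than such FPKM values would give for a short gene, because its longest GENCODE transcript has 16121 bases. Normalized counts averaged 76.0 ± 27.1 in hypoxia and 445 ± 157 in normoxia (SD, n = 3 each), with a log2 fold change of -2.54 (SE 0.35, edgeR adjusted p = 0.000268). Ordered by size in the authors' deposited table, this fall ranked 57 among the 1157 entries that were lower, CEBPA ranked 149 and FOXA1 224.

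The pregnane X receptor went the other way, at a low level throughout. NR1I2 measured 1.71, 1.24 and 1.67 FPKM in hypoxia, against 0.446, 0.374 and 0.227 FPKM in normoxia. The lowest hypoxia library was well above the highest normoxia library. The normoxia values rest on only 75, 56 and 35 counts, and the hypoxia values on 259, 207 and 269. Normalized counts averaged 258 ± 12.4 in hypoxia and 52.5 ± 19.8 in normoxia (SD, n = 3 each), with a log2 fold change of 2.30 (SE 0.31, edgeR adjusted p = 0.000241). The CV was 4.79% in hypoxia and 37.7% in normoxia, where the libraries were the more scattered. The rise ranked 389 among the 1524 higher entries of the authors' deposited table. All 4 genes passed the edgeR quasi-likelihood test, as did 100% of listed entries, and the authors' deposited table gives them FDR values between 9.25e-26 for CEBPA and 5.62e-09 for FOXA1. The sizes depend on the scale: under scalings not taken from the authors' fold changes, the log2 fold change was -3.02 to -2.32 for CEBPA, -2.82 to -2.12 for FOXA1, -3.51 to -2.82 for ONECUT2 and 1.36 to 2.06 for NR1I2, each still called.

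**Figure D1:**
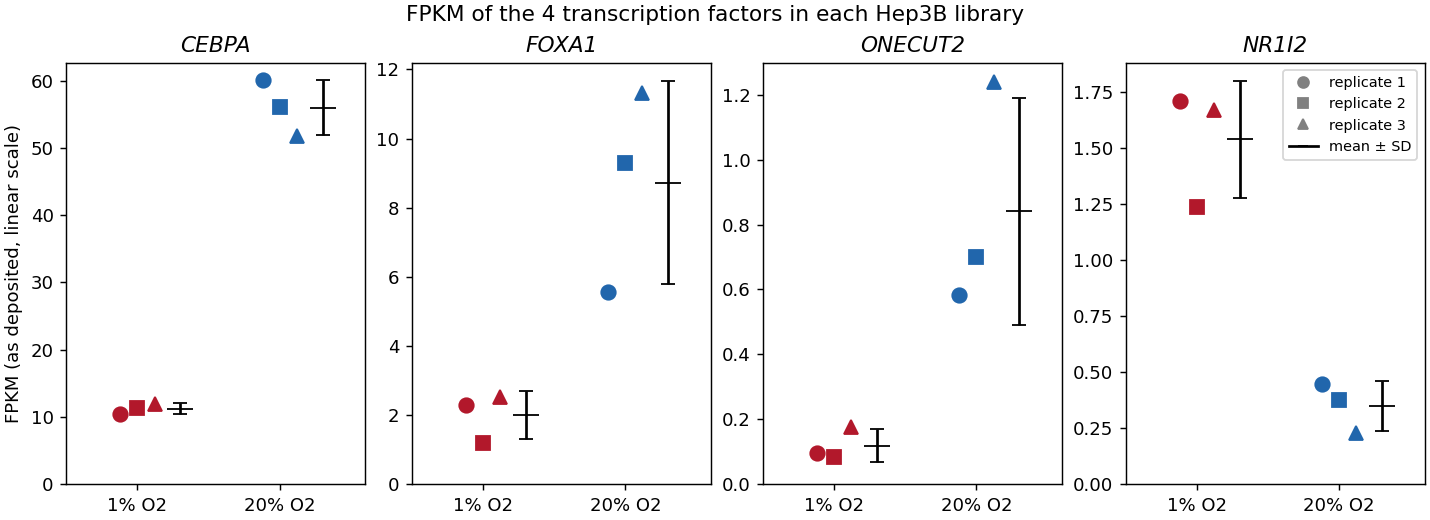
Deposited FPKM (linear axes from 0, one per gene) of CEBPA, FOXA1, ONECUT2 and NR1I2 in the 3 libraries at 1% oxygen (red) and the 3 at 20% oxygen (blue), with the mean and SD of each group in black. CEBPA, FOXA1 and ONECUT2 are lower in every hypoxia library, NR1I2 is higher in every one, and CEBPA reaches 60.1 FPKM where NR1I2 reaches 1.71.

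The order of the factors by level changed. At 1% oxygen it ran from CEBPA (mean 11.2 FPKM) through FOXA1 (1.996) and NR1I2 (1.54) to ONECUT2 (0.118), and at 20% oxygen from CEBPA (56.0) through FOXA1 (8.73) and ONECUT2 (0.841) to NR1I2 (0.349). FOXA1 and NR1I2 overlapped in hypoxia (1.20 to 2.51 and 1.24 to 1.71 FPKM), and all other neighbours in either order were separate in every library of the group. Among all listed entries, CEBPA stood at percentile 68.0 of mean FPKM in hypoxia and 92.2 in normoxia. NR1I2 stood at percentile 24.8 in hypoxia and 8.32 in normoxia. The lengths behind FPKM fit the longest GENCODE transcripts. Relative to CEBPA, reads per FPKM unit were 1.04 for FOXA1, 6.16 for ONECUT2 and 1.65 for NR1I2, and these transcripts 1.09, 6.13 and 1.68. Which transcripts were expressed was not examined, and libraries favoured transcripts by GC content and length. The order between genes is therefore approximate.

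Ratios of FPKM between members of the same library do not depend on how libraries are scaled. Within libraries, the log2 ratio of CEBPA to FOXA1 was 2.18, 3.24 and 2.25 in hypoxia, against 3.44, 2.59 and 2.19 in normoxia, and the groups overlapped. The ratio of CEBPA to ONECUT2 also overlapped, with means of 6.65 in hypoxia and 6.13 in normoxia. FOXA1 relative to ONECUT2 was 4.57, 3.86 and 3.83 in hypoxia, against 3.25, 3.73 and 3.19 in normoxia, without overlap, so ONECUT2 was the lower of the pair by a further 0.70 on the log2 scale. The ratios to NR1I2 moved most. CEBPA over NR1I2 averaged 2.88 in hypoxia and 7.38 in normoxia, and FOXA1 over NR1I2 averaged 0.32 in hypoxia and 4.64 in normoxia. ONECUT2 over NR1I2 averaged -3.77 in hypoxia and 1.25 in normoxia, so the pair changed places. An exact two-sided permutation test gave p = 0.1 for each of the 4 separate pairs, the smallest this design allows, and 0.6 and 0.4 for the CEBPA pairs with FOXA1 and ONECUT2. Adjusted over the 6 pairs, the smallest exact p was 0.15.

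**Figure D2:**
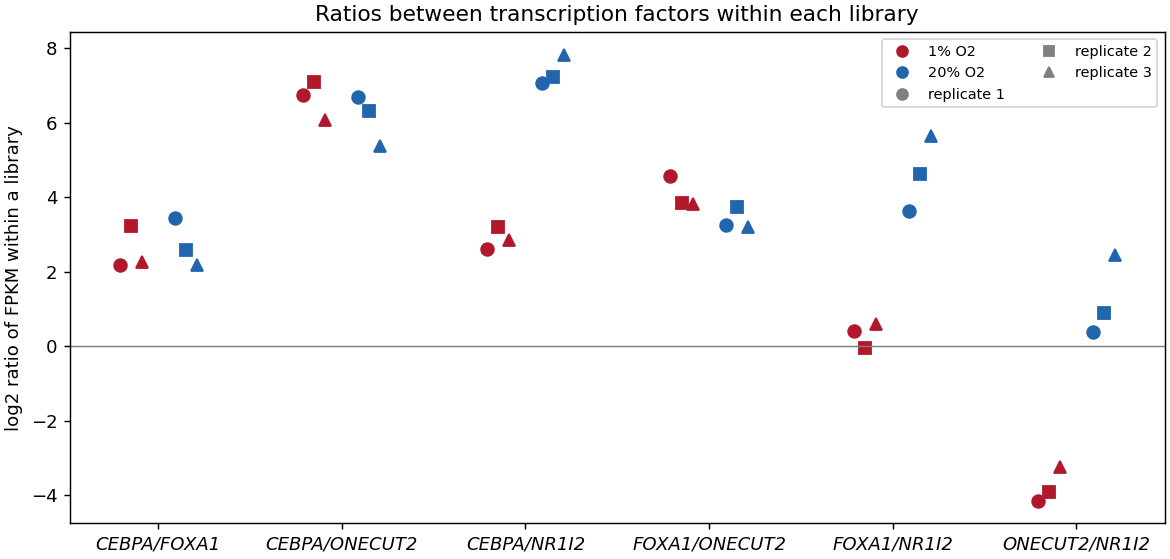
The log2 ratio of deposited FPKM between each pair of the 4 genes, in each library at 1% oxygen (red, left) and 20% oxygen (blue, right), with the marker shape giving the replicate. The pairs that hold NR1I2 are far apart between the groups, with ONECUT2 over NR1I2 at a mean of -3.77 in hypoxia and 1.25 in normoxia, while CEBPA over FOXA1 and CEBPA over ONECUT2 overlap.

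Libraries of the same group differed by the GC content of the transcripts they favoured. Over 2266 entries, the log2 deviation of a library from its group mean was correlated with the GC content of the transcript, positively in hypoxia replicate 2 (r = 0.597) and normoxia replicate 1 (r = 0.582), and negatively in hypoxia replicates 1 and 3 (-0.425 and -0.517) and normoxia replicate 3 (-0.602). Normoxia replicate 2 stood between them (-0.088). The correlation with log transcript length had the opposite sign in every library, at -0.488 in hypoxia replicate 2 and -0.47 in normoxia replicate 1, and 0.464 in hypoxia replicate 3 and 0.467 in normoxia replicate 3. These values describe genes of shared libraries and carry no test. The longest transcripts of the members are 65.9% GC for CEBPA, 51.3% for FOXA1, 50.5% for NR1I2 and 41.5% for ONECUT2, beside a median of 51.4% over listed entries with a transcript. FOXA1 lay 0.44 below its group mean on the log2 scale (deviation -0.44) in hypoxia replicate 2 and in normoxia replicate 1 alike, and above it in the other libraries. CEBPA lay above its mean in the same libraries, by 0.17 in hypoxia replicate 2 and 0.21 in normoxia replicate 1. ONECUT2 lay below its mean in them (-0.27 and -0.34), as it did in hypoxia replicate 1 and normoxia replicate 2. NR1I2 deviated by 0.50 in normoxia replicate 1 and -0.64 in normoxia replicate 3. Deviations are taken from the group mean, so each group holds both signs by construction. The part of GC content or length in the spread of the members was not tested, nor was a GC difference between the groups. A setting added after the data were seen removed the GC trends within the groups. The log2 fold changes were then -2.04 for CEBPA, -1.855 for FOXA1, -2.535 for ONECUT2 and 2.30 for NR1I2. Such a removal leaves the group means nearly as they were, so these values are no check on GC content.

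**Figure D3:**
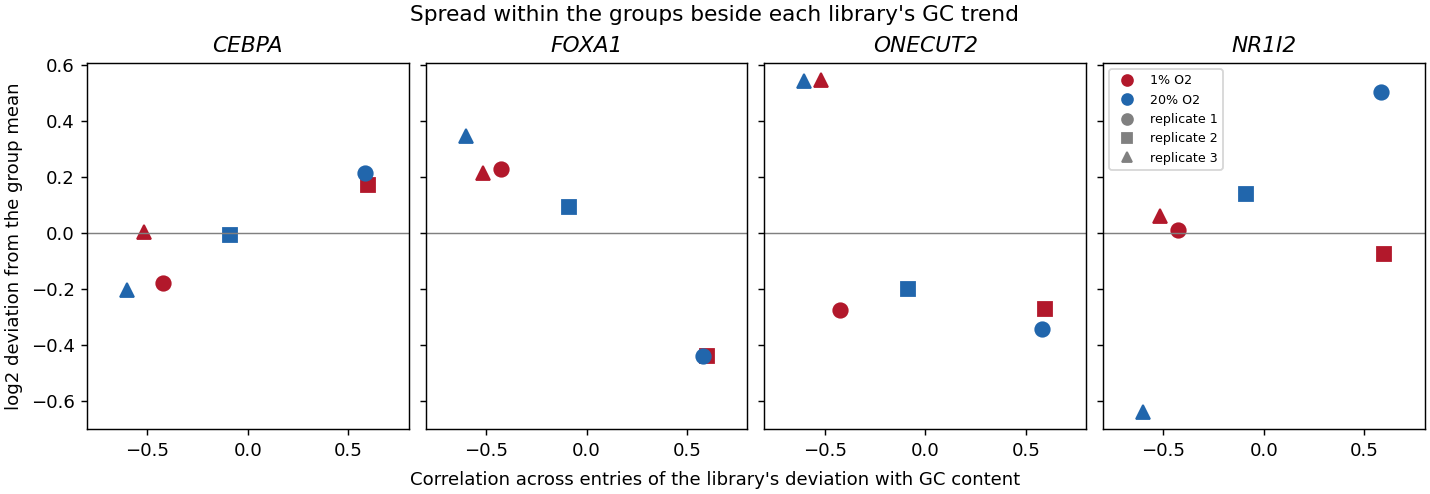
For each library, the deviation of a gene from its group mean (log2 normalized counts, vertical axis) against the correlation of that library's deviations with GC content over 2266 entries (horizontal axis), at 1% oxygen (red) and 20% oxygen (blue). Hypoxia replicate 2 and normoxia replicate 1 sit together on the right, where FOXA1 is 0.44 below its mean in both (-0.44), and CEBPA is above its mean.

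The close relatives of the 4 factors mostly had no entry. In the C/EBP family, 2 of 5 further members were listed, and both were higher. CEBPD encodes C/EBP delta, an acute phase member of the family, and measured 42.0, 51.2 and 38.0 FPKM in hypoxia, against 9.47, 6.71 and 7.96 FPKM in normoxia. Its log2 fold change was 2.72 (SE 0.25, edgeR adjusted p = 4.27e-05). CEBPD was the higher of the pair in every hypoxia library and CEBPA in every normoxia library: the log2 FPKM ratio of CEBPA to CEBPD lay between -2.18 and -1.67 in hypoxia and between 2.67 and 3.06 in normoxia. DDIT3, the stress-induced C/EBP homologous protein, rose less (log2 fold change 1.05, SE 0.23, edgeR adjusted p = 0.00272), and its call was lost when libraries were scaled by TMM over the listed entries (adjusted p = 0.0536). FOXA2, FOXA3, ONECUT1 and ONECUT3 had no entry.

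Among the nearest relatives and RXR partners of PXR, 1 of 5 was listed. VDR, the vitamin D receptor, measured 0.268, 0.188 and 0.350 FPKM in hypoxia, against 0.749, 0.730 and 0.729 FPKM in normoxia (log2 fold change -1.21, SE 0.26, edgeR adjusted p = 0.00226). The log2 FPKM ratio of NR1I2 to VDR was between 2.25 and 2.72 in hypoxia and between -1.69 and -0.75 in normoxia. NR1I3 and the 3 RXR genes had no entry. Of 21 further hepatocyte transcription factors 2 were listed, 1 higher and 1 lower. NR1H4, the bile acid receptor, measured 4.02, 4.66 and 4.48 FPKM in hypoxia, against 2.38, 1.89 and 2.33 FPKM in normoxia (log2 fold change 1.29, SE 0.21, edgeR adjusted p = 0.000622). With DESeq2 size factors over the listed entries its call was lost (adjusted p = 0.0658). GATA4, a zinc finger factor of early liver development, measured 0.930, 1.02 and 1.58 FPKM in hypoxia, against 5.39, 6.96 and 5.44 FPKM in normoxia (log2 fold change -2.25, SE 0.21, edgeR adjusted p = 4.9e-05). HNF4A, NR5A2 and PROX1 were among those without an entry.

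The domain names that the authors' annotation gives place each of the 4 in a wider class, and within those classes the direction differed. Among listed entries in general, all of them called on the main scale, 56.8% were higher and 43.2% lower. Fewer were called under other scalings. With DESeq2 size factors 986 were called higher and 1157 lower (46.0% and 54.0% of those called). With totals of the listed counts 770 were called higher and 1157 lower (40.0% and 60.0% of those called). Of 13 listed basic leucine zipper genes 10 were higher and 3 lower, with a median log2 fold change of 1.75 beside 1.11 over all listed entries. CEBPA was among the 3 that fell, with HLF and BATF3. MAFK, a small Maf protein that dimerizes with other leucine zipper factors, rose by 2.63 (SE 0.12), and MAFF by 2.23. Of 5 forkhead genes 3 were higher and 2 lower (median 1.58). The 2 that fell were FOXA1 and FOXQ1, a forkhead gene that measured 3.55, 3.22 and 3.99 FPKM in hypoxia, against 52.9, 68.3 and 56.3 FPKM in normoxia (log2 fold change -3.77, SE 0.16, edgeR adjusted p = 3.35e-06). FOXQ1 was thus the more abundant forkhead transcript of the pair in every library. Of 10 genes found as homeodomain or CUT genes 6 were higher and 4 lower (median 1.07), and ONECUT2 had the lowest fold change of them. The search of domain names was incomplete, since the listed homeodomain gene LHX1 (-1.96) was not among them. Of 7 nuclear receptors 6 were higher and 1 lower (median 1.32). NR1I2 rose most, followed by the retinoic acid receptor RARA (1.55) and the orphan receptor NR4A1 (1.51, lost when scaled by totals of the listed counts, adjusted p = 0.0533). These classes were formed after the values of the members were known, and 11 of their genes, none of the 4 factors among them, lost their call under at least 1 scaling computed over the listed entries.

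**Figure D4:**
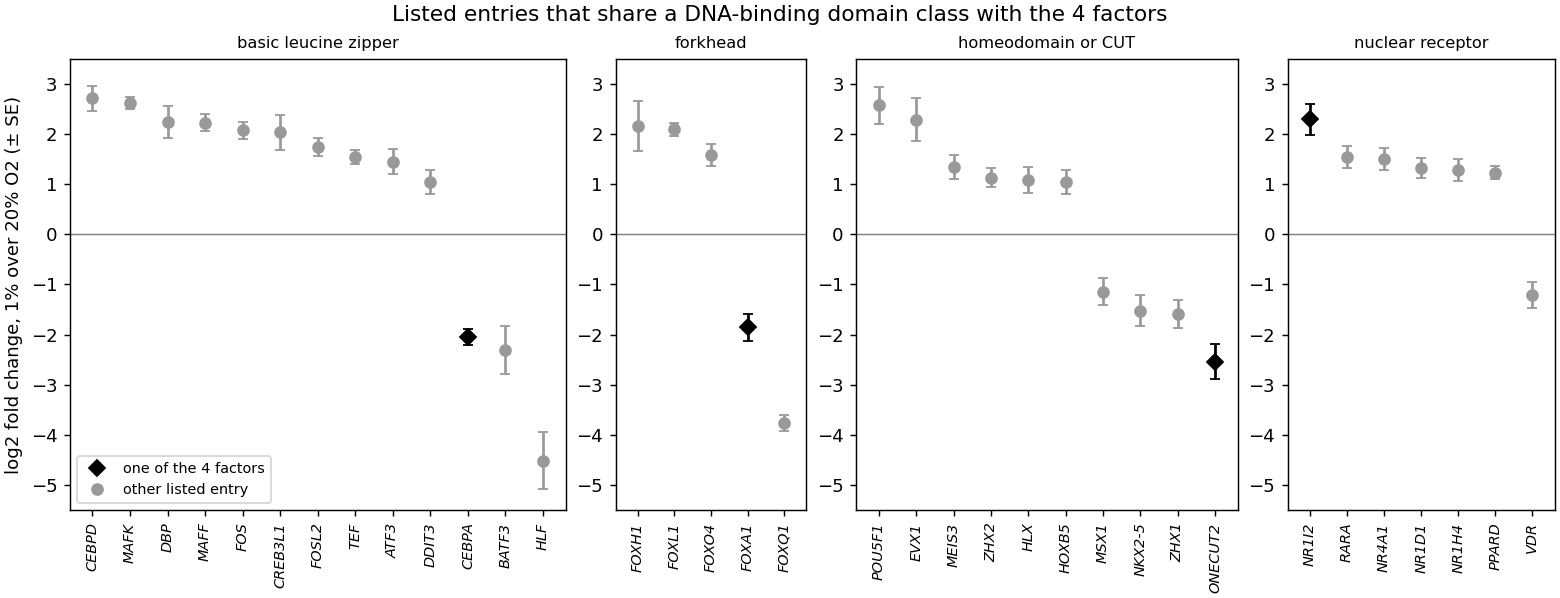
Log2 fold change of 1% over 20% oxygen with its SE (edgeR) for the listed entries that the search of domain names placed in the 4 classes. CEBPA, FOXA1, ONECUT2 and NR1I2 are black diamonds and other entries grey circles. The homeodomain class is incomplete, as LHX1 is not shown. CEBPA and FOXA1 lie among the lower entries of classes that are mostly higher. Of the entries shown for their classes, ONECUT2 is lowest at -2.54 and NR1I2 is highest at 2.30.

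Few known liver targets of the factors had an entry. For C/EBP alpha it was 1 of 12, the albumin gene ALB, which fell by 1.28 on the log2 scale. For the FOXA proteins 6 of 12 had an entry, 2 higher and 4 lower, where 56.8% of all listed entries were higher and 43.2% lower. The median log2 fold change of the 6 was -1.60, beside 1.11 over all listed entries. As every entry has an absolute log2 fold change of at least 1.00, such a median takes its sign from the majority. AFP (-2.05), APOB (-2.10), FGB (-1.92) and ALB fell, and these encode alpha-fetoprotein, apolipoprotein B, a fibrinogen chain and albumin. Their levels were low already in normoxia, with mean FPKM of 3.73 for AFP, 0.889 for APOB, 1.71 for FGB and 5.05 for ALB. FGB rests on 25, 10 and 51 counts in hypoxia, against 122, 124 and 113 in normoxia, and its log2 fold change was -2.58 without hypoxia replicate 3. TF, the transferrin gene, rose by 1.66 at a very low level, with mean FPKM of 0.449 in hypoxia and 0.169 in normoxia. IGFBP1, a growth factor binding protein, measured 82.8, 54.0 and 75.6 FPKM in hypoxia, against 3.16, 4.18 and 3.65 FPKM in normoxia (log2 fold change 4.53, SE 0.18, edgeR adjusted p = 3.35e-06). For the ONECUT proteins 0 of 8 had an entry. For PXR 3 of 20 had an entry, 1 higher and 2 lower. CYP3A5, a drug-oxidizing cytochrome P450, measured 20.9, 16.1 and 23.7 FPKM in hypoxia, against 5.64, 6.51 and 7.61 FPKM in normoxia (log2 fold change 2.05, SE 0.14, edgeR adjusted p = 1.32e-05). UGT1A1 and GSTA1, a glucuronosyltransferase and a glutathione transferase, fell by 1.28 and 1.42. Reads of UGT1A1 and GSTA1 can be shared with near-identical relatives. The classic PXR target CYP3A4 had no entry.

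All 6 genes chosen as signs of the oxygen response were listed and higher (CA9, VEGFA, SLC2A1, NDRG1, BNIP3 and PDK1, median log2 fold change 3.46), the direction the oxygen labels give. Markers of the labelled cell and of others moved as well, and over all listed entries 56.8% were higher and 43.2% lower. Of 15 hepatocyte markers 6 had an entry, 4 lower (ALB, AFP, APOB and FGB) and 2 higher. The higher ones were TF and AHSG, which encodes the plasma protein fetuin-A and measured 2.13, 2.83 and 1.86 FPKM in hypoxia, against 0.623, 0.577 and 0.365 FPKM in normoxia (log2 fold change 2.37, SE 0.36, edgeR adjusted p = 0.000426). The summed level of the 6 was 5.63 to 5.85 FPKM in hypoxia and 11.2 to 12.5 FPKM in normoxia. ALB, AFP, APOB, FGB and TF are also among the FOXA targets above, so the lists are not separate results. Of 8 bile duct markers 5 had an entry, all higher (KRT7, KRT19, SOX9, AQP1 and TFF3), with a summed level of 76.4 to 114.7 FPKM in hypoxia and 23.3 to 35.0 FPKM in normoxia. SOX9 and AQP1 lost their calls under scalings over the listed entries. Of 6 endothelial markers 2 were listed, CDH5 and EGFL7, both higher. Their summed level was 28.9 to 63.5 FPKM in hypoxia and 2.55 to 7.34 FPKM in normoxia, most of it EGFL7. CDH5 alone measured 1.47 to 1.63 FPKM in hypoxia and 0.12 to 0.42 FPKM in normoxia. Of 6 leukocyte markers 1 was listed, CD68 (114 to 127 FPKM in hypoxia and 36.0 to 38.8 in normoxia), and of 7 fibroblast markers 0. PECAM1, VWF, PTPRC and EPCAM had no entry, so their levels were not analysed here. Their part in the change of the 4 factors was not tested. In bulk RNA, fewer cells of a type and less RNA per cell cannot be told apart.

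For each factor, the 3 entries whose profile over the 6 libraries lay nearest were found among 2460 with a symbol and a mean of at least 20 counts. The measure was the distance between log2 normalized counts centred on each gene's mean. For CEBPA they were NDUFAF4 (distance 0.195), GPATCH4 (0.216) and CCND3 (0.246), with log2 fold changes of -2.05, -2.02 and -1.92. For FOXA1 they were LIG4 (0.177), LHX1 (0.219) and GCLM (0.240). ONECUT2 and NR1I2 had less close neighbours: FGF2 (0.467), MYB (0.555) and FAM111B (0.590) for ONECUT2, and ORAI3 (0.498), PIK3CD (0.503) and FA2H (0.539) for NR1I2. With 2 groups, any genes of like fold change lie near each other on this measure. Within 500000 bases of the members, the table listed FECH at 56986 bases from ONECUT2 and KCTD15 at 493369 bases from CEBPA, with -1.81 and -1.29 as their log2 changes in the authors' deposited table, and no entry near FOXA1 or NR1I2.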

How the data were processed

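Messenger RNA was sequenced in 6 Hep3B libraries, 3 per oxygen level, prepared with a SMARTER mRNA-seq kit per the labels' protocols. Aligner, counter, genome build and strand setting: not given in the sources used here. The authors deposited whole-number read counts, without normalization, per the file headers and values, and FPKM values, per the file headers. Their log2 fold changes and FDR-adjusted p-values were deposited beside them, positive where 1% oxygen is higher. Rows without values (2 of 2683) were dropped. Listed counts summed to 9905692 to 10134230 per hypoxia library and 5474597 to 6128947 per normoxia library. Estimated from counts, FPKM and GENCODE 29 transcript lengths over 892 entries, these are 27.4 to 28.2% of all fragments in the hypoxia libraries and 17.0 to 17.5% in the normoxia libraries.

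The scale of each library was recovered from the authors' fold changes and counts over the 1442 entries above 200 counts in every library (median absolute residual 0.000202), because scalings such as TMM assume that most entries do not change. Scales were 0.994, 0.844 and 0.997 for hypoxia replicates 1 to 3 and 1.06, 1.02 and 1.11 for normoxia replicates 1 to 3. Normalized counts are counts over this scale, so the fold changes are no check of the authors' own. All 2681 entries, which filterByExpr kept, were tested with edgeR 4.0.16 (quasi-likelihood, R 4.3.3) and adjusted by Benjamini-Hochberg at 0.05; the SE was derived from the fold change and its F statistic. The fit was tested on simulated data in which few entries changed, scales were known, dispersion was the same for all entries and no GC trends were present. These data differ in each respect, so that test checks the code and not the fit to these data. Alternatives used limma 3.58.1, DESeq2 1.42.0, other scalings and filters, and single libraries left out. Promoter sequences are from RefSeq on GRCh38.p14, matched by symbol for all 4 genes.

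The members and lists were chosen with earlier results of these data known. Named genes are the 4 members, listed members of the gene lists and the nearest profiles; genes of the domain classes and neighbours were named after their values were seen. No label says that the samples came from separate cultures; the p-values therefore reflect the spread among these 6 samples alone, possibly technical. Within groups, libraries differed beyond counting noise (chi-square over its degrees of freedom 13.1 to 268), so each was counted as 1 sample.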

Additional observations from a re-analysis of the deposited data

How the results depend on the processing

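All 4 members kept their direction and their call under all 17 alternatives run. Among these, the removal of GC trends within the groups could hardly move a fold change. The setting without a filter repeated the main fit, since filterByExpr had kept all 2681 entries. A filter at a mean of 50 counts left the fold changes of the 4 members as they were. All entries had been called on these same samples, so a kept call is no independent evidence. The log2 fold change ranged from -3.02 to -1.94 for CEBPA, -2.82 to -1.67 for FOXA1, -3.51 to -0.70 for ONECUT2 and 0.91 to 2.58 for NR1I2. Leaving out 1 library at a time gave -2.15 to -1.94 for CEBPA, -2.045 to -1.67 for FOXA1, -2.88 to -2.22 for ONECUT2 and 2.04 to 2.58 for NR1I2 (largest edgeR adjusted p 0.00234). Against the main scale the median log2 fold change of all entries moved by -0.269 with library totals taken from counts and FPKM, by -0.538 with TMM, by -0.784 with DESeq2 size factors and by -0.965 with totals of the listed counts. The members moved with it, NR1I2 to between 1.36 and 2.06. The values nearest 0 for ONECUT2 (-0.70) and NR1I2 (0.91) come from limma on log2(FPKM + 1), where a pseudocount of 1 exceeds most of their FPKM values. Of 68 other named genes, 13 lost their call under at least 1 scaling and 0 changed direction. The number of entries called lay between 1927 and 2681.

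No label says that a shared replicate number marks a shared culture. Same-numbered libraries deviated together with correlations of -0.487, -0.222 and 0.582. The highest value, 0.723, joined hypoxia replicate 2 and normoxia replicate 1, which had like GC trends. Such correlations therefore cannot decide whether the samples were paired. With the replicate block, 2681 entries were called and the log2 fold changes were -2.05 for CEBPA, -1.85 for FOXA1, -2.55 for ONECUT2 and 2.355 for NR1I2. The lowest count behind a member was 35 reads, for NR1I2 in normoxia replicate 3.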

Other observations

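The PAR basic leucine zipper genes, relatives of the C/EBP family that bind D-box elements and follow the circadian clock in liver, were split, and were picked out after their values were seen. HLF had 2, 2 and 0 counts in hypoxia replicates 1 to 3, against 40, 38 and 34 counts in normoxia replicates 1 to 3, and fell by 4.52 on the log2 scale (SE 0.56, edgeR adjusted p = 0.000166), a size that rests on few reads. Its relatives DBP and TEF rose, by 2.24 (SE 0.32) and 1.55 (SE 0.14). NR1D1, a nuclear receptor of the same clock, rose by 1.33 (SE 0.20), and its call was lost with DESeq2 size factors (adjusted p = 0.0507).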
